A study of Rattus norvegicus with 6 samples.

Results

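The 10 genes described here carry calcium across the distal nephron or make, break down and sense the hormonal and ionic signals that set that transport. They are Trpv5, Trpv6, Calb1, S100g, Slc8a1, Atp2b1, Vdr, Cyp24a1, Cyp27b1 and Casr. They were found among 61537 non-control array probes as the 22 probes whose accession, without its version, belongs to one of these RefSeq rat genes. All 10 genes and all 22 probes were well above background on all 6 arrays, so that every one of them was among the 29938 genes tested. The genes were chosen by their role in calcium transport and vitamin D handling, with the differences between the same 3 phenylbutazone and 3 vehicle arrays already known, so those differences are given as a description.

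Renal cortex RNA came from 6 male Sprague-Dawley (Crl:CD(SD)) rats bought at 5 weeks of age. Phenylbutazone, a cyclooxygenase inhibitor of the non-steroidal anti-inflammatory class, was given to 3 rats at 200 mg/kg/day for 4 weeks, and 3 rats received the vehicle, corn oil, for the same 4 weeks. Each rat's RNA was read on its own one-colour Agilent array, and the series design calls the samples of a group biological replicates. A level is the log2 of the processed spot intensity minus the 75th percentile of that array, so 0 stands for a spot at the 75th percentile. Levels of different probes cannot be set against each other, because each probe has its own affinity.

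In the kidney most filtered calcium is taken back passively in the proximal tubule and thick limb, and the final amount is set by active transport in the distal convoluted and connecting tubule. There calcium enters from the urine through the channel TRPV5, and in some cells TRPV6, is buffered in the cytosol by the calbindins, and leaves on the blood side through the sodium-calcium exchanger NCX1 and the calcium pump PMCA1. Active vitamin D is made in the proximal tubule by the enzyme of Cyp27b1, acts through the receptor encoded by Vdr, raises the transport proteins and induces Cyp24a1, whose enzyme inactivates the hormone.

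The channel genes Trpv5 and Trpv6, the pair with the largest differences among the 10, are neighbours with no other RefSeq gene starting between them in the assembly GRCr8. Their RefSeq promoter windows, 250 bases before to 50 after the start, lie on the minus strand at chr4:71529333-71529632 for Trpv5 and chr4:71489618-71489917 for Trpv6 (GRCr8). They are shown so that the sequence before each gene can be compared. Capitals mark 2 motifs looked for on both strands, AGGTCA, the half-site letters of many nuclear receptors, and TGACG, the half-site letters of cyclic AMP response elements.
Trpv5: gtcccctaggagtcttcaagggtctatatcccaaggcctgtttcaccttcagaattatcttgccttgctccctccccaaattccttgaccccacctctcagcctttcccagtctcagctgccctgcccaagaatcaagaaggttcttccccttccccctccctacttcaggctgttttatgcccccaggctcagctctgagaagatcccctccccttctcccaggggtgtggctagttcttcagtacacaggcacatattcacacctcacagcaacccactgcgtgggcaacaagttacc
Trpv6: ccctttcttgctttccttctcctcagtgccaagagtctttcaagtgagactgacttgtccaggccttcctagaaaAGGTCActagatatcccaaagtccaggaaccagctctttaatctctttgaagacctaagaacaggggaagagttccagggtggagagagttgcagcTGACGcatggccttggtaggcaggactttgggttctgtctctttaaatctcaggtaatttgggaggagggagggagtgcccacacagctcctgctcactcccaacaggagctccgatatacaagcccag
The Trpv6 window holds AGGTCA at positions -175 to -170 and TGACG at -79 to -75, counted from the start site, and the Trpv5 window holds neither string of letters. AGGTCA occurs in 16.2% and TGACG in 21.2% of the 33469 windows of the same length. The paired vitamin D response element known as DR3 matched 0 of the 7 member windows in the table (Trpv5, Trpv6, Slc8a1, Atp2b1, Cyp27b1, Vdr and Casr) and 0.35% of all windows. A match or its absence describes only the letters of these windows.

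The arrays had between 65.2% and 68.4% of their probes well above background, and 75th percentiles of 891 to 1003 intensity units. Vehicle arrays 1 and 2 were on slide 1, and vehicle array 3 and all 3 phenylbutazone arrays on slide 2, with a scan day of its own. Of the proximal tubule markers 10 of 10 were well above background and tested, and their median difference was 0.050 log2 units. Their detection cannot tell cortex from whole kidney, so the label renal cortex was not tested. Erythrocyte markers were higher in phenylbutazone in 7 of 7 tested genes, with a median difference of 0.46, beside 52.8% of all genes tested that were higher. Slc4a1 is on this list and also on that of the intercalated cells. All 7 erythrocyte markers had overlapping groups. Their mean deviation from each gene's own mean was -0.21 in phenylbutazone rat 2, below the 0.054 of vehicle rat 2. Their summed level ran from 579 to 922 times the 75th percentile on phenylbutazone arrays and from 494 to 677 on vehicle arrays, and its part in the results was not tested.

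The question put to the arrays is which cortical transcripts differ after dosing with phenylbutazone. With limma and Benjamini-Hochberg adjustment over all genes, 0 of the 10 members had an adjusted p under 0.05, against 0% of the 29938 genes tested. At an unadjusted p under 0.05 there were 3 members and 3657 genes, and limma with an intensity trend called 0 members and 8 genes. The groups did not overlap in 3 members, Trpv5, Trpv6 and Atp2b1, each higher in phenylbutazone, against 21.5% of all genes tested, 12.1% being higher and 9.39% lower in phenylbutazone. In all, 7 members were higher and 3 lower in phenylbutazone, with a median difference of 0.10 log2 units, beside 15806 genes higher, 14132 lower and a median of 0.015 over all genes tested. Since the list was chosen with these differences known, nothing is read from these counts.

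**Figure D1:**
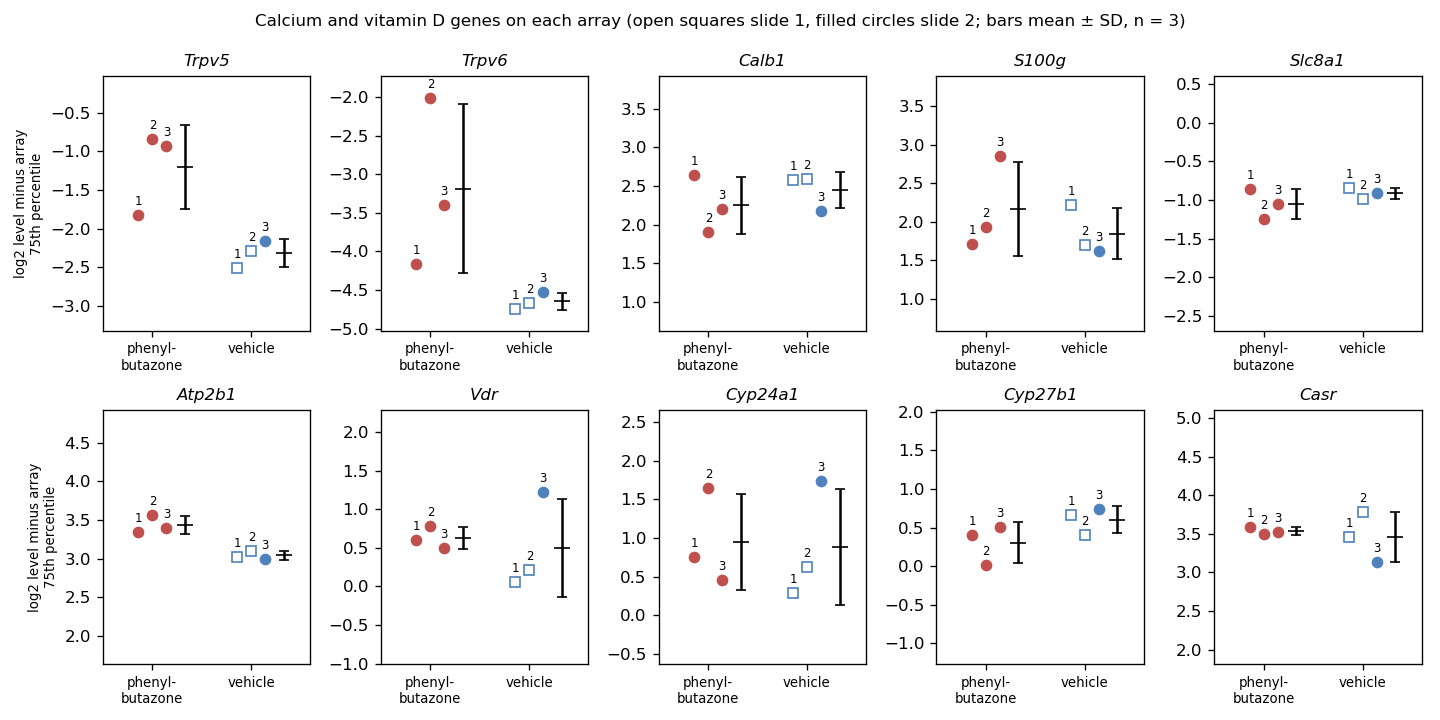
Level of each gene's brightest probe on each array, as log2 intensity minus the array's 75th percentile (vertical axes of equal length), with phenylbutazone left of vehicle and replicate numbers beside the points. Open squares are slide 1, filled circles slide 2, and bars the mean ± SD of 3 arrays; the groups lie apart in Trpv5, Trpv6 and Atp2b1, and vehicle 3 is the highest array for Vdr and Cyp24a1.

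Trpv5, which encodes the apical calcium channel of the distal tubule, had levels of -1.83, -0.84 and -0.93 in phenylbutazone rats 1, 2 and 3, against -2.51, -2.28 and -2.16 in vehicle rats 1, 2 and 3. Every phenylbutazone rat was above every vehicle rat, and phenylbutazone rat 1 lay closest to the vehicle group. The difference was 1.12 ± 0.28 log2 units (SE, n = 3 per group), 2.17-fold higher in phenylbutazone, and 0.95 against vehicle 3, the only vehicle array on the same slide. Of all genes tested 1.22% had a larger absolute difference.

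A dimmer Trpv5 probe read -2.90, -2.19 and -2.16 in phenylbutazone rats 1, 2 and 3 and -3.74, -3.43 and -2.89 in vehicle rats 1, 2 and 3. Its difference, 0.94 ± 0.29 (SE), had the same sign, but phenylbutazone rat 1 lay just below vehicle rat 3, so the groups of this probe overlap. Against vehicle 3 alone its difference was 0.47. Both probes therefore put phenylbutazone rats 2 and 3 above all vehicle rats, and only the brighter one does so for rat 1.

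Trpv6 encodes the closely related calcium channel best known from the gut and also found in the distal nephron. Its probe was dim, with processed intensities of 49.8, 239 and 92.6 units in phenylbutazone rats 1, 2 and 3, against 35.4, 39.6 and 39.9 units in vehicle rats 1, 2 and 3. On the log2 scale these were -4.16, -2.01 and -3.40 in phenylbutazone and -4.75, -4.66 and -4.53 in vehicle. The lowest level called well above background lay between -5.90 and -5.32 on the 6 arrays, so the vehicle values were close to the lower limit.

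The groups of Trpv6 did not overlap, and the phenylbutazone rats were far more scattered than the vehicle rats, with SDs of 1.09 and 0.11 log2 units. The difference was 1.46 ± 0.52 (SE, n = 3 per group), 2.75-fold higher in phenylbutazone. It rested in good part on rat 2: without phenylbutazone replicate 2 it was 0.87, and without phenylbutazone replicate 1 it was 1.95. With normexp background correction and an offset of 50, an added constant that shrinks differences of dim probes by its construction, it was 0.76. Trpv5 and Trpv6 are close in sequence and the files give no probe sequences, so hybridisation of one transcript to the other gene's probe was not tested.

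Calb1 encodes calbindin-D28k, the main cytosolic calcium buffer of distal convoluted and connecting tubule cells. Its levels were 2.65, 1.90 and 2.20 in phenylbutazone rats 1, 2 and 3 and 2.58, 2.59 and 2.18 in vehicle rats 1, 2 and 3. The groups overlapped fully, with phenylbutazone rat 1 the highest and phenylbutazone rat 2 the lowest of all arrays. The difference was -0.20 ± 0.22 (SE), and 0.072 against vehicle 3 alone.

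S100g encodes calbindin-D9k, the small calcium buffer first known from the intestine. Its levels were 1.71, 1.93 and 2.85 in phenylbutazone rats 1, 2 and 3 and 2.22, 1.70 and 1.62 in vehicle rats 1, 2 and 3. Phenylbutazone rat 3 stood above the other arrays, and the rest of the groups overlapped. The difference of 0.32 ± 0.33 (SE) rested on that rat, since it was -0.027 without phenylbutazone replicate 3.

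On the blood side of the cell, Slc8a1 encodes the sodium-calcium exchanger NCX1. Its brightest probe read -0.86, -1.24 and -1.05 in phenylbutazone rats 1, 2 and 3, against -0.84, -0.99 and -0.91 in vehicle rats 1, 2 and 3, a difference of -0.14 ± 0.13 (SE). Its 6 probes, which match 2 RefSeq transcripts, gave differences between -0.14 and 0.074, 3 above and 3 below 0, and all had overlapping groups. On 5 of these 6 probes phenylbutazone rat 1 was the highest array.

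Atp2b1 encodes PMCA1, a plasma membrane calcium pump present in most cells. Its levels were 3.34, 3.57 and 3.40 in phenylbutazone rats 1, 2 and 3 and 3.03, 3.10 and 2.99 in vehicle rats 1, 2 and 3. The groups did not overlap, and both were tight, with SDs of 0.12 in phenylbutazone and 0.057 in vehicle. The difference was 0.40 ± 0.10 (SE), 1.32-fold higher in phenylbutazone, and 0.45 against vehicle 3 alone. A larger absolute difference was found in 15.1% of all genes, and a larger within-group SD in 86.4%.

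The further Atp2b1 probes had smaller differences of 0.36 ± 0.15, 0.21 ± 0.20 and 0.077 ± 0.11 (SE). The first of these also had groups that did not overlap, and the other two had overlapping groups. Against vehicle 3 alone they differed by 0.12, -0.22 and 0.023, so on slide 2 the size seen with the brightest probe was not found with the other probes of the gene.

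**Figure D2:**
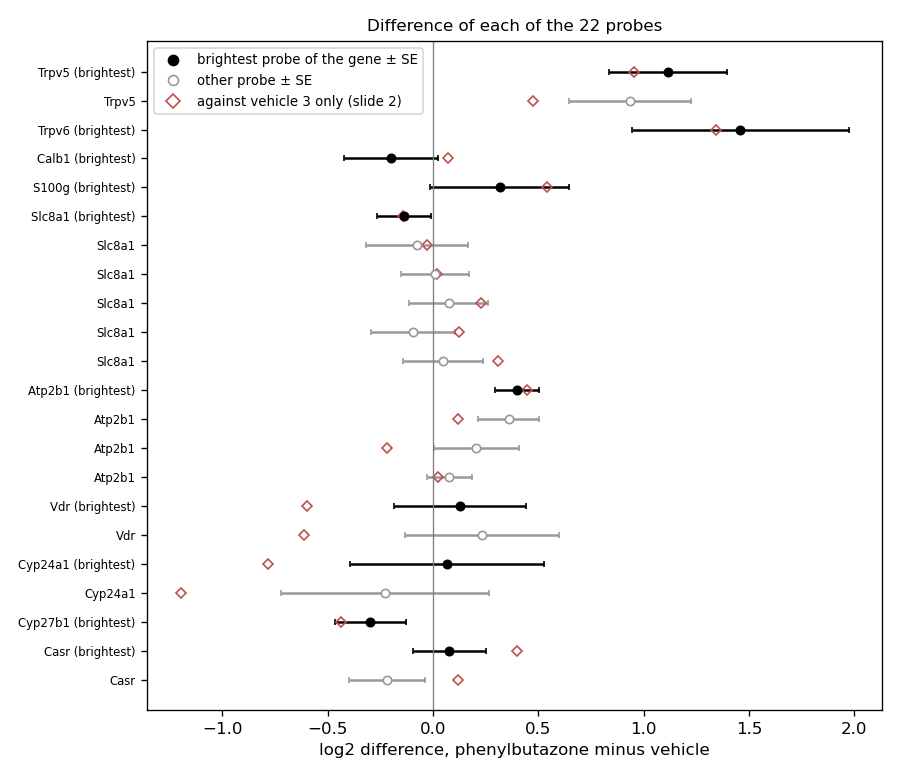
Log2 difference between phenylbutazone and vehicle (horizontal axis) for each of the 22 probes, with the SE as bars; filled black points are the brightest probe of a gene, open grey points its other probes, and red diamonds the difference of the 3 phenylbutazone arrays from vehicle 3 alone. The Trpv5 and Trpv6 probes lie highest, at 0.94 to 1.46, and the diamonds of Vdr and Cyp24a1 lie far left of their points.

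Vdr encodes the nuclear vitamin D receptor. Its levels were 0.60, 0.78 and 0.50 in phenylbutazone rats 1, 2 and 3, against 0.056, 0.22 and 1.23 in vehicle rats 1, 2 and 3. The 3 phenylbutazone rats lay together, above vehicle rats 1 and 2 and below vehicle rat 3. The difference of 0.13 ± 0.31 (SE) is thus the mean of opposite gaps: it was 0.49 without vehicle replicate 3 and -0.60 against vehicle 3 alone. The second Vdr probe ordered the 6 arrays in the same way, with a difference of 0.23 ± 0.36 and -0.61 against vehicle 3 alone.

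Cyp24a1 encodes the 24-hydroxylase that inactivates vitamin D and is a classical target of the receptor. Its levels were 0.75, 1.64 and 0.45 in phenylbutazone rats 1, 2 and 3, against 0.29, 0.62 and 1.73 in vehicle rats 1, 2 and 3. Vehicle rat 3 was the highest array and phenylbutazone rat 2 the next, as for Vdr. The difference was 0.065 ± 0.46 (SE), with 0.49 without vehicle replicate 3 and -0.79 against vehicle 3 alone. On the second Cyp24a1 probe the same pair of rats led, and the difference was -0.23 ± 0.49, or -1.20 against vehicle 3 alone.

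Among vehicle rats, rat 3 exceeded the mean of rats 1 and 2 by 1.09 log2 units for Vdr and by 1.28 for Cyp24a1. Larger absolute gaps of this kind were found in 4.23% and 2.71% of all genes tested, whose median absolute gap was 0.30. For the brightest probes of the other members the gap ran from -0.49 (Casr) to 0.24 (Trpv5). On further probes it was 0.69 for Trpv5, 0.64 and 0.36 for Atp2b1, and -0.50 for Casr. With 1 vehicle array on slide 2, rat and slide cannot be told apart in this gap.

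**Figure D3:**
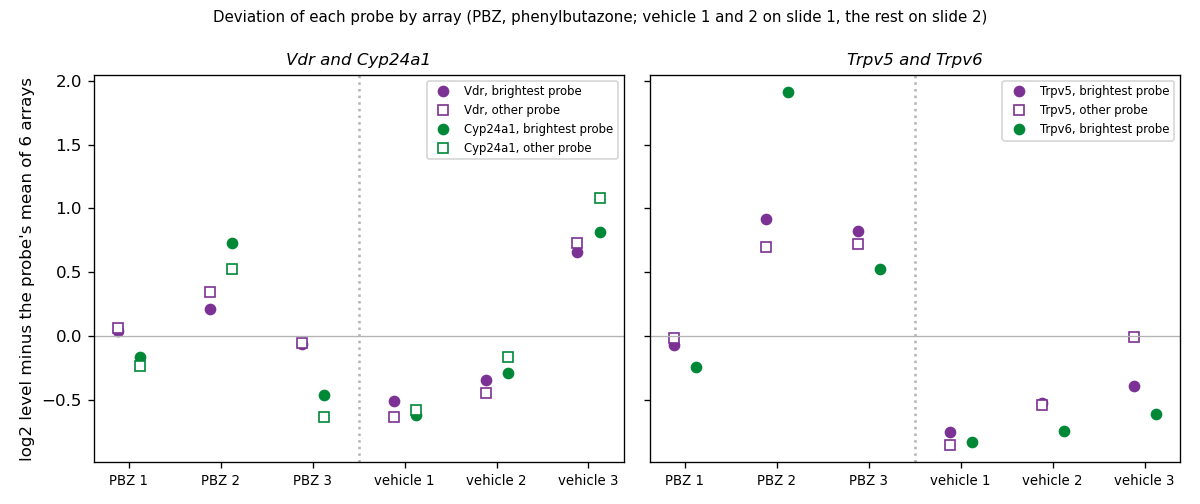
Deviation of each probe from its own mean of 6 arrays (vertical axis, log2 units) by array, for Vdr and Cyp24a1 (left) and Trpv5 and Trpv6 (right); filled circles are the brightest probe and open squares the other probe. All 4 Vdr and Cyp24a1 probes are highest in vehicle 3 with phenylbutazone 2 next, whereas the channel probes are highest in phenylbutazone 2 and 3.

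Cyp27b1 encodes the 1-alpha-hydroxylase that makes active vitamin D. Its levels were 0.40, 0.010 and 0.51 in phenylbutazone rats 1, 2 and 3, against 0.66, 0.41 and 0.74 in vehicle rats 1, 2 and 3. Vehicle rats 1 and 3 were above all phenylbutazone rats, but vehicle rat 2 lay among them. The difference was -0.30 ± 0.17 (SE), and -0.44 against vehicle 3 alone. Phenylbutazone rat 2, the treated rat with the highest Cyp24a1 level, had the lowest Cyp27b1 level of all arrays, while vehicle rat 3 was highest for both genes.

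Casr encodes the calcium-sensing receptor, which in the thick limb restrains calcium reabsorption when blood calcium is high. Its levels were 3.59, 3.50 and 3.52 in phenylbutazone rats 1, 2 and 3, against 3.46, 3.78 and 3.14 in vehicle rats 1, 2 and 3. The phenylbutazone rats lay within the span of the vehicle rats. The difference was 0.077 ± 0.17 (SE), and 0.40 against vehicle 3 alone, the lowest array on this probe. The second Casr probe gave -0.22 ± 0.18, the opposite sign, and 0.12 against vehicle 3 alone.

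The members varied widely in their spread between rats of a group. The pooled within-group SD was 0.78 for Trpv6, 0.69 for Cyp24a1 and 0.49 for S100g, and only 0.091 for Atp2b1 and 0.15 for Slc8a1, beside a median of 0.20 over all genes tested. A larger SD than that of Trpv6 was found in 3.38% of all genes, and one larger than that of Cyp24a1 in 4.37%.

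Markers of the segment that carries most of these genes were read beside them. Of 13 distal convoluted and connecting tubule markers 8 were tested, 3 higher and 5 lower in phenylbutazone, and 0 passed with limma. Their median difference was -0.17, and 0.11 against vehicle 3 alone. Klhl3, Trpm6, Emx1 and Tmem213 had no probe matched here, and Pvalb, the parvalbumin gene of the early distal convoluted tubule, was too dim to be tested. Slc12a3, the thiazide-sensitive cotransporter gene that defines the distal convoluted tubule, differed by 0.016 ± 0.17 (SE). Kcnj10, which encodes a basolateral potassium channel of the same cells, had levels of -5.16, -6.33 and -5.80 in phenylbutazone rats 1, 2 and 3, against -3.75, -4.81 and -4.70 in vehicle rats 1, 2 and 3, a difference of -1.34 ± 0.39 (SE). It was the only one of the 8 whose groups did not overlap, beside 21.5% of all genes tested. Its dim probe cleared the background in 1 of the 3 phenylbutazone rats and in all 3 vehicle rats.

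The mean deviation of the 8 markers was 0.18, -0.32 and -0.21 in phenylbutazone rats 1, 2 and 3 and 0.20, 0.21 and -0.058 in vehicle rats 1, 2 and 3. Without Kcnj10, left out after its values were seen, it was 0.22, -0.19 and -0.14 in phenylbutazone rats 1, 2 and 3 and 0.035, 0.20 and -0.12 in vehicle rats 1, 2 and 3, so the high value of vehicle rat 1 rested on that dim marker. With or without it, phenylbutazone rats 2 and 3 had the lowest values of the list. Without it, phenylbutazone rat 3, at -0.14, lay close to vehicle rat 3, at -0.12. Trpv5 and Trpv6 were highest in phenylbutazone rats 2 and 3, and a link to the marker values was not tested. The median difference of the other 7 markers was -0.084. The summed level of the markers ran from 439 to 507 times the 75th percentile on phenylbutazone arrays and from 352 to 470 on vehicle arrays. By this sum the lowest array was thus a vehicle array, so the order of the arrays depends on the measure. Intercalated cells, which lie among the cells of the connecting tubule and collecting duct, were read from 6 markers, all tested, 5 higher and 1 lower in phenylbutazone and 0 passing with limma. Their median difference was 0.24, and 0.61 against vehicle 3 alone. The groups did not overlap in 4 of the 6, against 21.5% of all genes tested. Slc26a4 (pendrin) at 0.68 ± 0.18 (SE), Atp6v1g3 at 0.57 ± 0.17 and Atp6v0d2 at 0.32 ± 0.13 were higher, and Aqp6 at -0.46 ± 0.16 lower. The mean deviation of these 6 markers was lowest in vehicle rat 3, at -0.29. Their summed level ran from 169 to 212 times the 75th percentile on phenylbutazone arrays and from 109 to 149 on vehicle arrays. Of 7 principal cell markers 6 were tested, 4 higher and 2 lower, with a median difference of 0.12.

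In whole cortex fewer cells of a type and less RNA per cell cannot be told apart, and the part of segment content in these values was not tested.

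Thick ascending limb markers, where Casr acts, were tested in 8 of 8 genes, 5 higher and 3 lower, with a median difference of 0.21 and a mean deviation of -0.23 in vehicle rat 3, the lowest of the 6 arrays. The brighter Casr probe was lowest in the same rat, and the dimmer one was lowest in phenylbutazone rat 2, at 0.93, with vehicle rat 3 next, at 0.97. The summed level of this list ran from 347 to 463 times the 75th percentile on phenylbutazone arrays and from 229 to 368 on vehicle arrays, and its part in the Casr values was not tested.

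Other genes of calcium, phosphate and vitamin D handling were read from a list of 66 further symbols, of which 59 had a matched probe and 55 were tested. With limma 0 of the 55 passed over all genes, and 3 had an unadjusted p under 0.05, beside 3657 of the 29938 genes tested. In phenylbutazone 30 (54.5%) were higher and 25 lower, beside 52.8% higher over all genes. The median difference was 0.043, beside 0.015 over all genes. The groups did not overlap in 7 of them, 12.7%, against 21.5% of all genes. The lowest adjusted p was 0.208 (limma).

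Of these 7, 4 were higher in phenylbutazone. Spp1, which encodes osteopontin, a secreted protein that inhibits calcium crystal growth in urine, had levels of 5.20, 4.14 and 5.41 in phenylbutazone rats 1, 2 and 3, against 2.50, 3.06 and 3.13 in vehicle rats 1, 2 and 3, a difference of 2.02 ± 0.36 (SE). Anxa2, whose protein with S100A10 brings TRPV5 and TRPV6 to the cell surface, differed by 0.39 ± 0.093, and a second probe, with overlapping groups, by 0.18. Against vehicle 3 alone Anxa2 differed by 0.38 and, on the second probe, by -0.091. Its partner gene S100a10 differed by 0.26 ± 0.20, with overlapping groups. Vehicle rat 3 was its lowest array, at 1.87, against 2.52 and 2.49 in vehicle rats 1 and 2. The S100a10 difference against vehicle 3 alone was 0.68. Cldn19, a tight junction gene of the thick limb needed for passive calcium and magnesium reabsorption, differed by 0.38 ± 0.18. Its other probes, with overlapping groups, were at 0.33 and 0.31. Against vehicle 3 alone the brightest Cldn19 probe differed by 0.40, and the others by only 0.013 and 0.031. Gnas, which encodes the G protein subunit through which the parathyroid hormone receptor signals, differed by 0.20 ± 0.12, but its probes disagreed, at 0.49 and -0.050.

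Cldn14, a thick limb tight junction gene whose protein restrains calcium passage and which the calcium-sensing receptor induces in mice, had the largest difference of any probe on the list, though not with its brightest probe. That dimmer probe read -4.19, -1.39 and -2.71 in phenylbutazone rats 1, 2 and 3, against -5.53, -7.40 and -5.82 in vehicle rats 1, 2 and 3, without overlap. Its difference was 3.49 ± 0.80 (SE; limma adjusted p = 0.298 over all probes), over values that cleared the background in all 3 phenylbutazone rats but in 1 of the 3 vehicle rats. The brightest Cldn14 probe differed by 0.73 ± 0.33, the second highest difference among the 55 genes, with overlapping groups.

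The other 3 were lower in phenylbutazone. Pthlh, which encodes parathyroid hormone-related protein, had levels of -2.87, -3.46 and -3.68 in phenylbutazone rats 1, 2 and 3, against -2.79, -2.78 and -2.09 in vehicle rats 1, 2 and 3, a difference of -0.78 ± 0.28 (SE). Lrp2, which encodes megalin, the proximal tubule receptor that takes up filtered vitamin D bound to its carrier, differed by -0.19 ± 0.092, and a second Lrp2 probe by 0.0095. Ap2s1, an adaptor subunit that takes part in the uptake of the calcium-sensing receptor from the surface, differed by -0.098 ± 0.090, and its second probe by -0.20. The parathyroid hormone receptor gene Pth1r differed by -0.34 ± 0.22 and Kl, which encodes the FGF23 co-receptor klotho, by -0.17 ± 0.13, both with overlapping groups. Against vehicle 3 alone Pth1r differed by -0.80 and Kl by -0.36. Vehicle rat 3 exceeded the mean of vehicle rats 1 and 2 by 0.68 for Pth1r and by 0.29 for Kl.

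**Figure D4:**
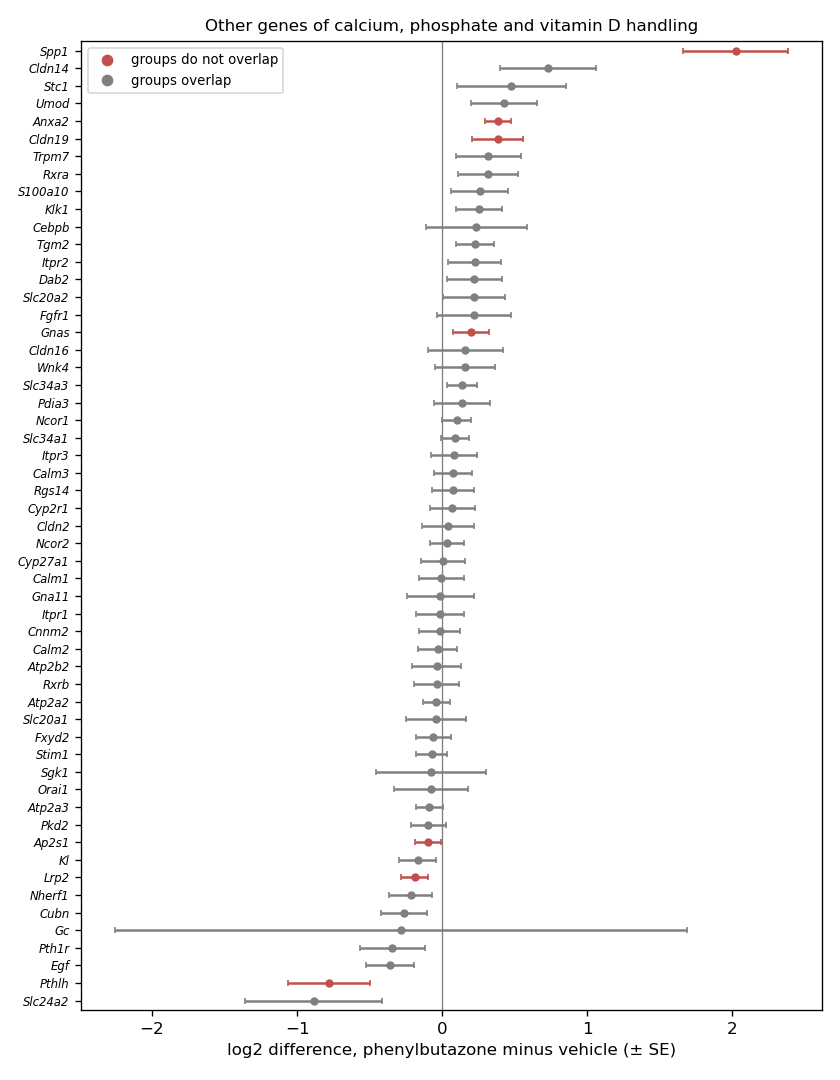
Log2 difference between phenylbutazone and vehicle (horizontal axis, bars SE, n = 3 per group) for the 55 tested further genes of calcium, phosphate and vitamin D handling, ordered by the difference. Red points mark the 7 genes whose groups do not overlap; by brightest probe the range runs from 2.02 for Spp1 to -0.89 for Slc24a2, and the dimmer Cldn14 probe, at 3.49, is not drawn.

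Genes with the most similar profile were looked up for Trpv6 and Trpv5, the 2 members with the largest absolute differences. Over the 6 arrays Trpv5 correlated most closely with Igfbp1 (Pearson r = 0.996), Il1r2 (r = 0.992) and Maff (r = 0.989). The Il1r2 probe was dim, at -5.75 and -5.69 in vehicle rats 1 and 2. These values lay below the lowest level called well above background on the same arrays, -5.32 and -5.53, so this r rests partly on undetected values. Igfbp1, whose secreted protein binds insulin-like growth factors, had levels of 1.56, 3.11 and 2.75 in phenylbutazone rats 1, 2 and 3 and 0.63, 0.82 and 1.16 in vehicle rats 1, 2 and 3. For Trpv6 the closest were Rnf4 (r = 0.987), Itga7 (r = 0.984) and Srsf4 (r = 0.982), whose own differences were small, at 0.094, 0.25 and 0.21. These correlations over 6 arrays include the difference between the groups, and 429 genes exceeded 0.9 with Trpv5 and 223 with Trpv6, so they are given as a description only.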

How the data were processed

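The submitters' processing notes name Agilent Feature Extraction 10.7, as do the file headers. The deposited scanner files hold an intensity per spot, corrected for background and detrended within the array only, per the file headers. The deposited value table holds a ratio per probe, which differed from the processed intensity over the array's 75th percentile by at most 0.0057 log2 units for values over 0.05. The array layout names the rat build rn4, of which no coordinates are used.

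Of 62976 spots, 1439 controls were left out, as were 40 probes flagged as outliers on an array. Levels are log2 intensities less the 75th percentile of their array. Probes were kept where they were called well above background on 3 or more of 6 arrays (41006, 66.6%, whose joint fit gives the values of further probes). Unversioned accessions were matched to RefSeq genes of GRCr8, used for names, and named 28206 probes (45.8%). A gene is its probe with the highest mean level. Differences, phenylbutazone minus vehicle, were fitted in limma 3.58.1 (lmFit, eBayes; R 4.3.3) on all 29938 genes, two-sided, with Benjamini-Hochberg adjustment and a threshold of 0.05. With 3 arrays a group, the number of arrays sets the precision.

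The members, the lists and the tests were chosen with earlier results of these data known. All members are named. Of the pathway list, up to 5 genes in each direction with groups that do not overlap are named; S100a10, Pth1r, Kl, Slc24a2, Cldn14 and the markers given by name were added after their values were seen. In simulated data for this comparison with 29938 genes, 47% of genes changed 2-fold and 91% of those changed 4-fold were recovered, with 10 false calls. The simulated noise was independent between genes and arrays and held no slide effect. These rates therefore do not give the recovery on the real arrays, where slide and treatment partly coincide. Alternatives were median scaling, quantile normalization, normexp on the median spot intensity, the value table, no filter and a stricter filter, each probe fitted singly, leave-one-out fits, an intensity trend, a block for slide (fixed or random), the arrays of slide 2 only, and a block for replicate number.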

Additional observations from a re-analysis of the deposited data

How the results depend on the processing

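No member and no further pathway gene passed the threshold with limma under any of the 18 alternatives. The count of all genes passing, 0, was 1 with quantile normalization, 2 with normexp, 8 with an intensity trend, 1 with slide as a random block, and 0 to 814 with each replicate left out, the highest without vehicle replicate 3 (237 higher, 577 lower), where treatment and slide coincide. The members without overlap numbered 8 on slide 2 alone, where 72.6% of all genes did not overlap, and 3 to 5 with each replicate left out, where 27.6% to 43.7% of all genes did not overlap, with 5 (28.8% of all genes) without vehicle replicate 2. Trpv5, Trpv6 and Atp2b1 were higher, and Slc8a1 and Cyp27b1 lower, in phenylbutazone under all 18 alternatives, at 0.91 to 1.43, 0.76 to 1.95, 0.26 to 0.45, -0.23 to -0.030 and -0.44 to -0.15. These are not 18 separate checks. The intensity trend, the replicate block, no filter and the stricter filter returned the main differences. The fixed slide block and slide 2 alone give the same difference by construction. All but the fit of each probe used the brightest probe only. Of the Slc8a1 probes 3 lay above 0, and an Atp2b1 probe was at -0.22 against vehicle 3 alone. Under the alternatives signs turned, with the cause not tested, for 5 members. With slide as a fixed block or on slide 2 alone they were 0.072 for Calb1, -0.60 for Vdr and -0.79 for Cyp24a1, and with slide as a random block -0.34 for Vdr and -0.48 for Cyp24a1. Vdr was -0.019 with normexp, and Cyp24a1 was -0.081 and Casr -0.071 as means over their probes. With each replicate left out S100g ran from -0.027 to 0.54, Vdr from -0.094 to 0.49, Cyp24a1 from -0.28 to 0.49 and Casr from -0.085 to 0.24. No pairing of the rats by replicate number was seen: deviations of same-numbered rats correlated at -0.030, 0.011 and -0.074, and no phenylbutazone array correlated best with its own number. Taken from the mean of only 3 arrays a group, such deviations cannot exclude a pairing. With the replicate block 0 genes and 0 members passed (lowest limma adjusted p 0.461 for both).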
